A study of Mus musculus with 36 samples.

Results

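Fibroblast growth factors (FGFs) are secreted proteins that act on receptor tyrosine kinases at the cell surface. Transcripts of 6 FGF ligand genes (Fgf2, Fgf4, Fgf7, Fgf10, Fgf15 and Fgf17) and of the 4 kinase receptor genes (Fgfr1, Fgfr2, Fgfr3 and Fgfr4) were followed while mouse fibroblasts were reprogrammed to pluripotency, with and without the zinc finger protein gene Zfp266. The 10 genes were taken by gene name, and each name matched 1 of the 21442 genes in the count table. The question was where each ligand and receptor gene is expressed along reprogramming, and whether its level differed between Zfp266 KO and control cells.

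The 36 RNA-seq libraries formed 12 groups of 3, at 6 stages and in 2 genotypes. They covered embryonic fibroblasts of mouse (MEFs), sorted mOrange+ cells at D3, D5 and D7 of reprogramming, induced pluripotent stem (iPS) cells and embryonic stem cells (ESCs). Controls and KO alike were set up with the Cas9 TNG MKOS background. It holds a Nanog-GFP-ires-Puro reporter, constitutive Cas9, and a doxycycline-inducible cassette of the 4 reprogramming factors linked to mOrange. KO cells received a guide RNA against Zfp266 and control cells (WT) a control guide RNA, except that the labels name the WT ESCs as the parental line (Clone J) of the KO clones. MEFs came from chimeric embryos at E12.5 and were collected 96 h after the guide was delivered by lentivirus. No sorting of these MEFs is described, so some host cells without the background may be among them. For reprogramming, few Cas9 TNG MKOS MEFs were mixed with wild-type MEFs of strain 129, and doxycycline (300 ng/ml) and vitamin C (10 µg/ml) were added. KO MEFs and KO reprogramming cells were populations of edited cells, in which some cells may keep a working allele. KO iPS cells and KO ESCs were single-cell clones and WT iPS cells were 3 clones, whereas all 3 WT ESC libraries came from 1 line. Nothing in the labels says that the MEF and reprogramming replicates were separate derivations, so p-values there measure the spread between these samples. In ESCs they set KO clones against libraries of 1 WT line, so the knockout and differences between clones cannot be told apart. The MEF medium held FGF2 protein and heparin, while the reprogramming and stem cell medium held LIF and neither of them, so stage and added FGF2 cannot be told apart between MEFs and the later stages.

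Total counts ran from 19224103 to 39610939 per library. Levels are given as normalised read counts, which are counts divided by a size factor for each library, and 3 reads in a library correspond to 2.31 to 5.22 normalised read counts. The third KO MEF library stood apart from its group: Ccnd1, a cell cycle gene, was at 6354 there and at 28727 and 28699 in the other KO MEF libraries, and Fgf1 was at 68.9 against 556 and 544. The summed level of 10 pluripotency markers was between 57.6 and 79.5 in MEFs and between 123604 and 158554 in iPS cells and ESCs, and that of 10 fibroblast markers was between 412957 and 583608 in MEFs and between 124 and 277 in iPS cells and ESCs, as the labels of these stages would have it. The Zfp266 transcript itself was lower in KO than in WT iPS cells (log2FC -0.39, FDR 9.9e-06), higher at D3 (log2FC 0.32, FDR 0.0088), and did not pass FDR 0.05 at the other stages. Small insertions and deletions need not lower a transcript count, so this level does not check the edit.

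FGFs bind their receptors together with heparan sulfate, and the receptor then signals through the adaptor FRS2 to the RAS-ERK cascade. In mouse ESCs, FGF4 made by the cells themselves acts on FGFR1 and FGFR2 and drives ERK signalling that prepares the cells to leave naive pluripotency. FGF7 and FGF10 are typical mesenchymal ligands that signal to the epithelial form of FGFR2, FGF2 is a mitogen for fibroblasts, and FGF15 and FGF17 are best known from the gut and the developing brain. ERK activity switches on the Sprouty, Spred and Dusp6 feedback inhibitors and the ETS factors of the Etv family.

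The regulatory sequence of Fgf4 is shown first because Fgf4 is the member that differed most between KO and WT cells. Fgf4 carries a well studied enhancer in its last exon, where SOX2 and OCT4 bind side by side in pluripotent cells. In GENCODE M21 (GRCm38) a SOX core and an octamer-like core with 3 bases between them (CTTTGTTNNNATGCTAAT) lay in exon 3 of the transcript Fgf4-201, in the 3′ UTR, 1453 bases after the stop codon. The site is given 5′ to 3′ on the plus strand at chr7:144864388-144864417, with the cores and the bases between them in capitals.
Fgf4 enhancer site: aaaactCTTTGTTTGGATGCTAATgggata
Of 21901 protein-coding genes, 1 had this match on either strand of a transcript (0.00457%), but the letters were spelled after the Fgf4 site and the share is a description.

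The 250 bases before the RefSeq start site (GRCm38.p6) are shown for Fgf4 and for Fgf7, a ligand with the opposite course, at the high end in pluripotent cells and in fibroblasts, respectively. The reference table held 7 of the 10 members. Capitals mark the GC box with the letters GGGCGG, the box that is named CCAAT after its letters, and a repeat spelled TATATATA, each searched on both strands, and no 2 marked motifs overlapped. The Fgf4 region is chr7:144861136-144861385 on the plus strand and the Fgf7 region is chr2:126034408-126034657 on the plus strand.
Fgf4 upstream: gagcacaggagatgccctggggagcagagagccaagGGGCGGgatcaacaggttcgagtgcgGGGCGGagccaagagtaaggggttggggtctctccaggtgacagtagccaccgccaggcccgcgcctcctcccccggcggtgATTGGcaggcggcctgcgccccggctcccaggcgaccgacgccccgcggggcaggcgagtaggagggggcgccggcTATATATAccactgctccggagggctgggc
Fgf7 upstream: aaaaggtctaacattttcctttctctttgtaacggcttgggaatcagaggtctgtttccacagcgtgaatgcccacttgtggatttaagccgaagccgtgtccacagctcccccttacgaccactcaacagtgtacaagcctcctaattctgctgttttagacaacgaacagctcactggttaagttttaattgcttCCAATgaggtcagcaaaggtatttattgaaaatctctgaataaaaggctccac
The Fgf4 region had 71.2% G and C with 2 GC boxes, a CCAAT box on the minus strand and the TATA repeat at -30 to -23 from the start. The Fgf7 region had 43.6% G and C and a CCAAT box at -53 to -49. Among 32536 distinct upstream regions of that length in the table, 33.0% held a GC box, 33.8% a CCAAT box and 0.676% the TATA repeat. The shorter TATAAA (12.3% of regions), the SOX core CTTTGTT (5.02%) and the octamer ATGCAAAT (1.62%) were in neither of the printed regions.

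The ligand genes Fgf2, Fgf7 and Fgf10 were fibroblast genes that fell by D3. Fgf2 (chromosome 3, 37348346 to 37410108) stood at 1717, 1589 and 1579 normalised read counts in WT MEFs and at 1505, 1576 and 1429 in KO MEFs. At D3 it was between 38.0 and 68.1 in all 6 libraries, and in ESCs between 5.06 and 20.6. The step from MEF to D3 in WT cells was a log2 fold change (log2FC) of -4.92 (SE 0.20, false discovery rate FDR 4.0e-133, DESeq2 Wald test over all genes). Fgf7 (chromosome 2, 126034658 to 126091185) was at 995, 900 and 986 in WT MEFs and at 1075, 1169 and 1212 in KO MEFs, and between 2.91 and 29.6 at D3 (log2FC in WT -6.31, SE 0.47). From D5 on no library exceeded 31.4. Fgf10 (chromosome 13, 118669791 to 118792115) was at 473, 480 and 483 in WT MEFs, and at 505, 488 and 824 in KO MEFs, where 824 is the library that stands apart. It was at 25.1 or less from D3 to D7 and came back to between 28.5 and 105 in iPS cells and ESCs (iPS cells against D7 in WT, log2FC 2.73, SE 0.54). So Fgf2 and Fgf7 stayed low once lost, whereas Fgf10 was again seen in pluripotent cells at levels below those of MEFs.

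**Figure D1:**
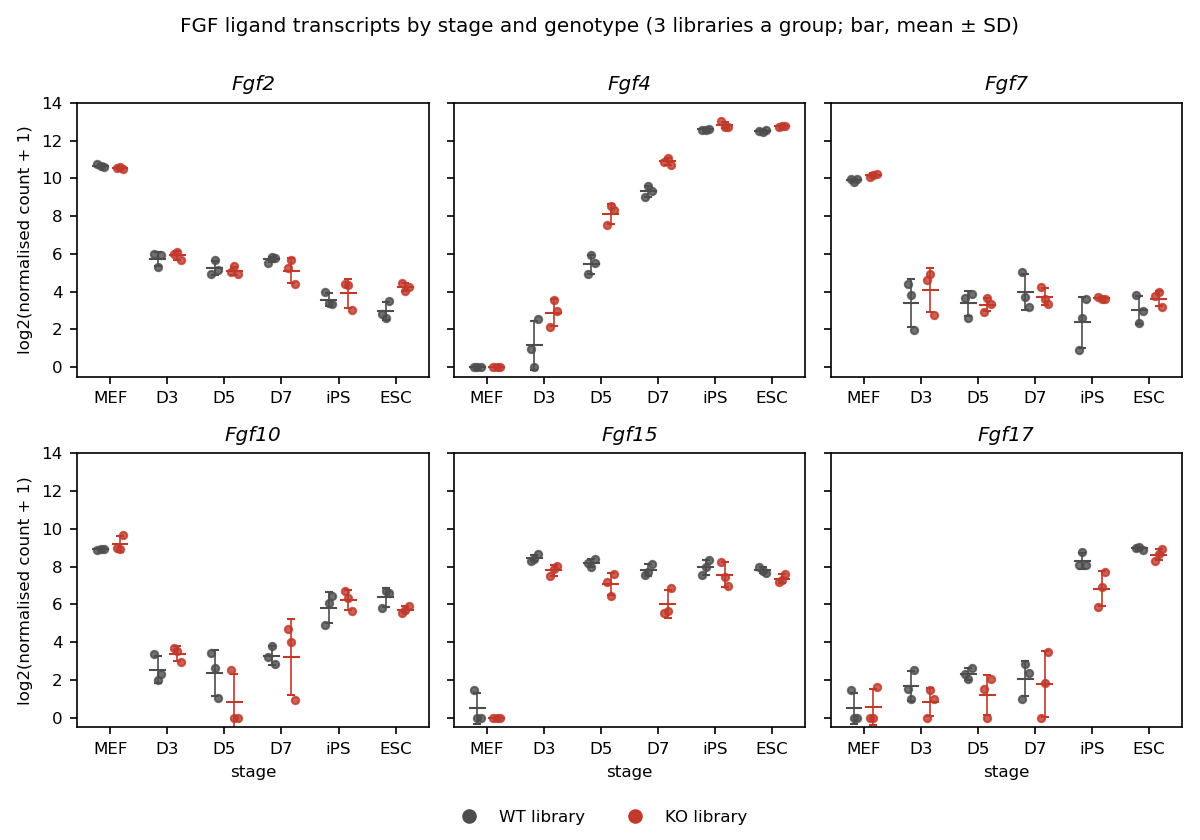
Level of the 6 FGF ligand genes at each stage, as log2(normalised read count + 1) on the vertical axis, with a point for each library (grey WT, red KO) and a bar for the mean with its SD (n = 3). Fgf2, Fgf7 and Fgf10 are highest in MEFs, Fgf4 climbs from D5 and lies higher in KO at D5 and D7, Fgf15 appears at D3, and Fgf17 is seen in iPS cells and ESCs.

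Fgf4 (chromosome 7, 144847367 to 144865243), the autocrine ligand of ESCs, took the opposite course. It had no read in any of the 6 MEF libraries. In WT cells it was at 0.917, 0 and 4.85 normalised read counts at D3, at 29.1, 59.9 and 44.8 at D5, at 521, 775 and 648 at D7, at 6059, 6037 and 6358 in iPS cells and at 5790, 5664 and 5942 in ESCs. Each step from D3 to iPS cells was a rise (log2FC 4.53, SE 0.63 from D3 to D5, 3.87, SE 0.23 from D5 to D7 and 3.25, SE 0.19 from D7 to iPS cells). Against the level that 3 reads per MEF library would give, WT D7 cells were at least 150.2-fold higher and WT ESCs at least 1344-fold higher. Between ESCs and iPS cells no difference was called in WT (log2FC -0.09, SE 0.19, FDR 0.85). In order of mean level, KO iPS cells and KO ESCs overlapped at the top, and below them WT iPS cells, WT ESCs, KO D7, WT D7, KO D5 and WT D5 followed without overlap between neighbours. At D3 all libraries were at 10.7 or less, near the level of 3 reads, and the WT step from MEF to D3 (FDR 0.042) was lost in 6 of its alternative fits.

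Fgf15 (chromosome 7, 144896531 to 144900953), the mouse counterpart of human FGF19, was the highest of the 6 ligand genes at D3. MEF libraries held 1.74 normalised read counts or less, and D3 libraries in WT cells 318, 333 and 398. It was then at 289, 250 and 338 at D5, 186, 211 and 282 at D7, 188, 253 and 327 in iPS cells and 249, 220 and 202 in ESCs. No WT step after D3 passed the threshold (FDR 0.45 to 0.80). Fgf17 (chromosome 14, 70636203 to 70642268) belongs to the same subfamily as Fgf8 and was a ligand of established pluripotent cells. It was at 9.99 or less in all 24 libraries of MEFs and of D3 to D7, and at 266, 443 and 268 in WT iPS cells (log2FC 6.45, SE 0.59, FDR 1.3e-26 from D7) and 502, 524 and 469 in WT ESCs. It therefore appeared after D7, whereas Fgf4 was already present at D5 in the same libraries.

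Of the 4 receptor genes, Fgfr1 had the highest level at every stage. Fgfr1 (chromosome 8, 25513654 to 25575718), the main FGF receptor of mesenchyme and of ESCs, was at 6802, 6804 and 6874 normalised read counts in WT MEFs, fell to 1552, 1398 and 1662 at D3 (log2FC -2.15, SE 0.14, FDR 3.5e-50), and stood at 1801, 1871 and 1977 at D5 and 3006, 2696 and 3010 at D7. WT iPS cells had 2940, 1896 and 1892 and WT ESCs 1614, 1612 and 1854. The difference between D5 and D7 had FDR 0.00018 but a log2FC of 0.63 (SE 0.14), below the size required for a call. Its lowest levels were at D3 and in ESCs, whose libraries overlapped.

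Fgfr2 (chromosome 7, 130162451 to 133123350) was lost and regained. WT MEFs had 336, 357 and 409 normalised read counts, the 18 libraries of D3 to D7 between 12.3 and 52.0, WT iPS cells 393, 386 and 763 and WT ESCs 596, 590 and 610. The loss (log2FC -3.64, SE 0.36) and the return after D7 (log2FC 4.30, SE 0.36, FDR 1.9e-31) were both called in WT cells. Fgfr2 and Fgf10 thus shared the fall by D3 and the return after D7 (Pearson r 0.887 over the 12 group means, a description over groups that share stages). They differed in the level regained: in WT ESCs Fgf10 was below and Fgfr2 above WT MEFs. The third KO MEF library held 862 Fgfr2 normalised read counts and 824 of Fgf10, the highest of the MEFs in both.

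Fgfr3 (chromosome 5, 33721674 to 33737068) peaked at D3 and Fgfr4 (chromosome 13, 55152640 to 55168759) came last. Fgfr3 was at 17.4, 33.3 and 43.5 normalised read counts in WT MEFs and at 170, 177 and 264 at D3 (log2FC 2.66, SE 0.35, FDR 1.5e-13). It was then at 81.5, 91.9 and 137 at D5, 72.0, 75.5 and 65.8 at D7, and between 12.2 and 36.5 in all iPS and ESC libraries. Fgfr4 was between 2.12 and 20.9 in MEFs, at 5.39 or less at D3 and D5, at 9.13, 9.06 and 6.17 in WT cells at D7 and at 76.9, 80.9 and 69.6 in WT iPS cells (log2FC 3.22, SE 0.40, FDR 3.0e-15). D3 was therefore the stage with the most Fgfr3, and iPS cells and ESCs those with the most Fgfr4.

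**Figure D2:**
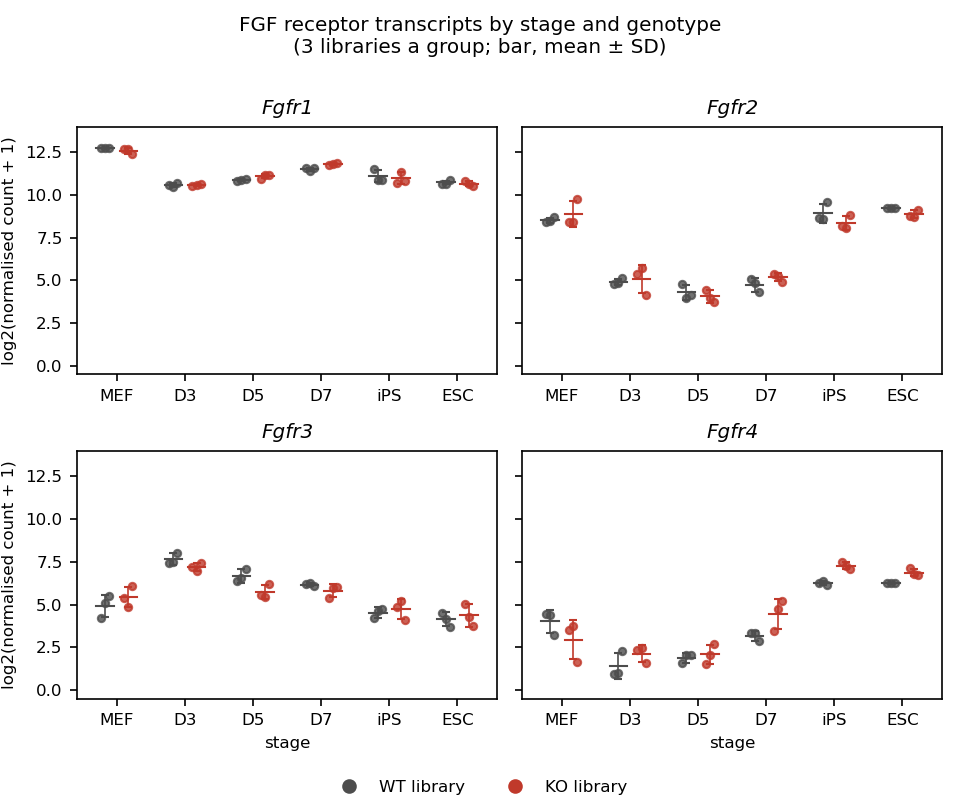
Level of the 4 FGF receptor genes at each stage, as log2(normalised read count + 1), with a point for each library (grey WT, red KO) and a bar for the mean with its SD (n = 3). Fgfr1 is the highest throughout, Fgfr2 is low from D3 to D7, Fgfr3 is highest at D3, and Fgfr4 is highest in iPS cells and ESCs.

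A change between stages was called where FDR was below 0.05 and the absolute log2FC above 1. From MEF to D3 in WT cells 3 of the 10 members rose and 6 fell, against 44.9% of all tested genes called in either direction. The other WT steps gave 1 call from D3 to D5 (6.77% of all genes), 1 from D5 to D7 (5.81%), 8 from D7 to iPS cells (45.0%) and 0 of 6 members with an FDR from iPS cells to ESCs (0.275%). In KO cells the same steps gave 8 calls (46.0%), 4 (9.25%), 5 (14.2%), 8 (38.8%) and 1 (1.46%), and the last of these was Fgf17, higher in KO ESCs than in KO iPS cells (log2FC 1.64, SE 0.41, FDR 0.0037). Between WT ESCs and WT MEFs 4 members were higher and 4 lower (55.4% of all genes called). The 0 calls from iPS cells to ESCs in WT came with no member under an unadjusted p of 0.05 other than Fgfr1 (log2FC -0.41, SE 0.14).

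To compare genes with one another, levels were divided by the length of merged exons in kilobases and given as a share of the summed level of the ligands or of the receptors. In WT MEFs the ligand sum was 46.2% Fgf7, 37.5% Fgf2 and 16.3% Fgf10. At D3 it was 88.5% Fgf15, and in iPS cells and ESCs Fgf4 made up 86.8% and 82.3%, followed by Fgf17 with 8.67% and 13.4%. The sum itself was 640 ± 24.1 (SD, n = 3) normalised read counts per kilobase in WT MEFs, 129 ± 13.9 at D3, 122 ± 13.4 at D5, 294 ± 45.7 at D7 and 2205 ± 24.0 in WT ESCs. Fgfr1 made up 93.9% of the receptor sum in WT MEFs and 95.2% at D7, and less at D3 (83.2%, with 15.0% Fgfr3) and in WT ESCs (67.7%, with 22.9% Fgfr2 and 8.42% Fgfr4). The summed level of these 6 ligands per kilobase was thus lowest at D3 and D5 and highest in pluripotent cells, a sum without Fgf3, which alone was at 444 ± 77.9 per kilobase in WT cells at D3. The sum of the receptors was highest in MEFs (736 ± 7.48 against 253 ± 14.3 in WT ESCs).

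**Figure D3:**
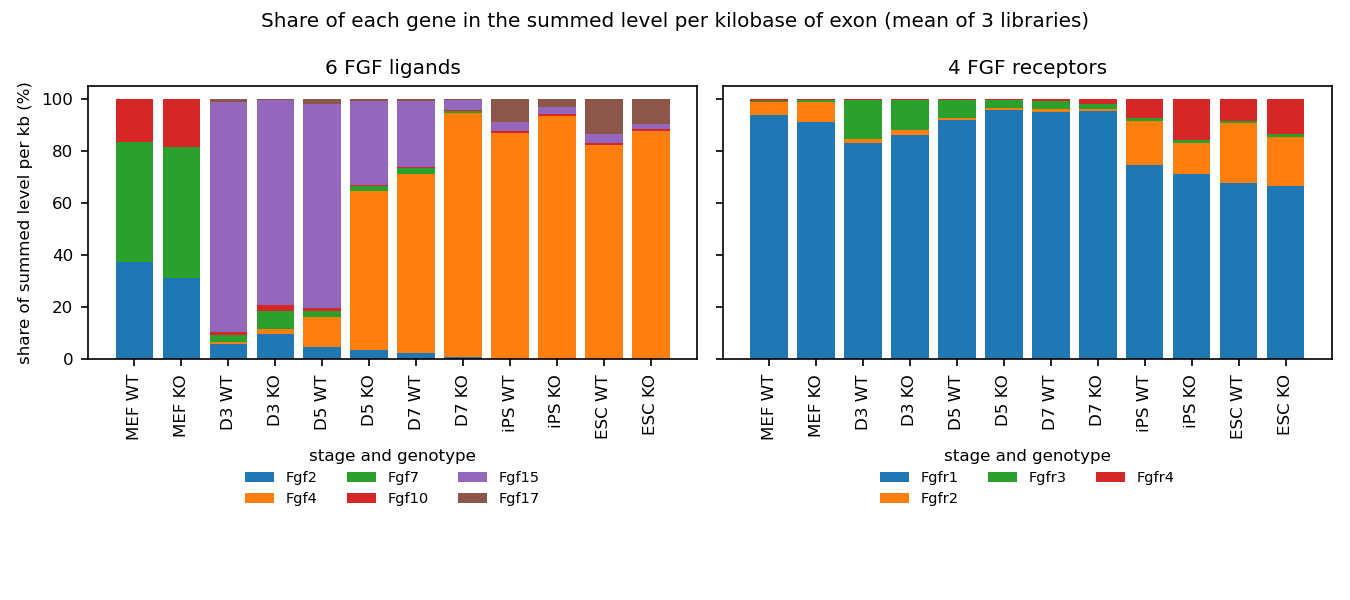
Share of each gene (colours) in the summed level per kilobase of exon of the 6 ligands (left) and of the 4 receptors (right), in percent, as the mean of 3 libraries for each stage and genotype. Among these 6 ligands the share passes from Fgf7, Fgf2 and Fgf10 in MEFs to Fgf15 at D3 and then to Fgf4. Fgf4 reaches 61.1% in KO and 11.6% in WT cells at D5. Fgf3 is not among the 6.

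Differences between Zfp266 KO and WT cells were called at D5 and later stages, in Fgf4, Fgf15, Fgfr4, Fgf17 and Fgf2. Between KO and WT cells 0 of the 10 members were called in MEFs (0.0190% of all tested genes called) and 0 at D3 (0.162%). At D5 2 were called (1.19% of all genes), Fgf4 up (0.808% of genes called up) and Fgf15 down (0.379% called down). At D7 3 were called (8.37%), Fgf4 and Fgfr4 up (3.95% called up) and Fgf15 down (4.42% called down). In iPS cells 2 were called (4.51%), Fgfr4 up and Fgf17 down, and in ESCs 1 (1.21%), Fgf2 up. With unadjusted p below 0.05 instead, Fgfr4 in MEFs (log2FC -0.92, SE 0.47) and Fgf4 and Fgf15 at D3 (log2FC 1.84, SE 0.69, and -0.63, SE 0.32) would be added to those stages without a call. By edgeR the counts in MEFs and at D3 were also 0.

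**Figure D4:**
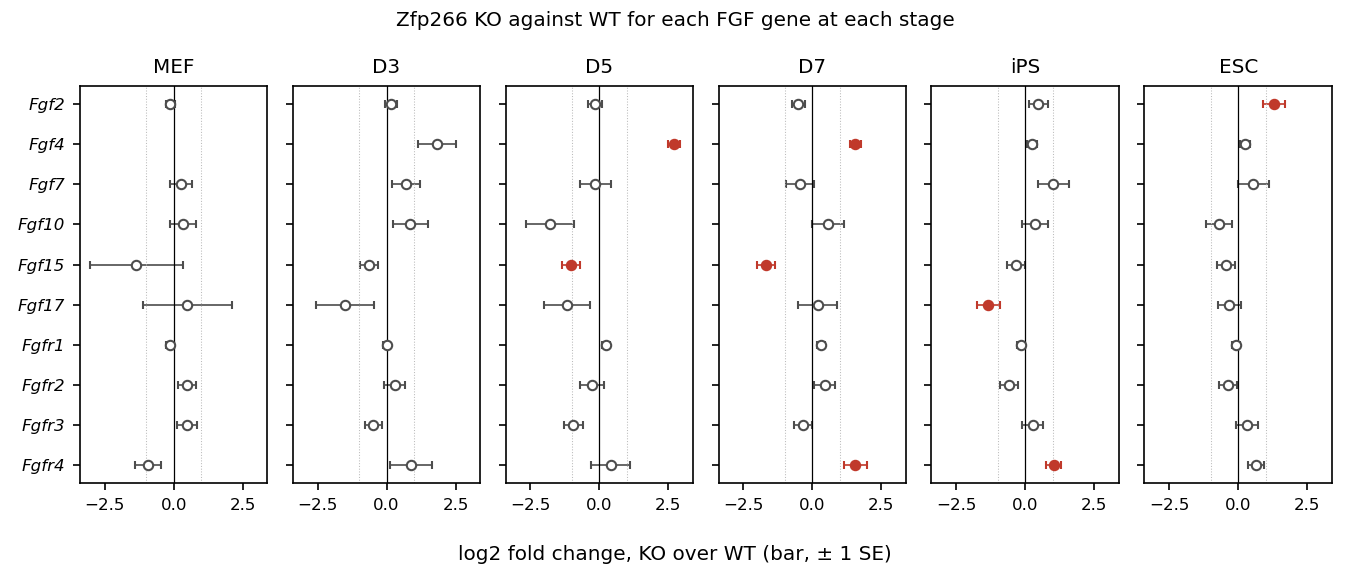
Difference between KO and WT cells for each of the 10 genes at each stage, as log2FC (KO over WT) with its SE from the DESeq2 fit. Filled red points passed FDR 0.05 with an absolute log2FC above 1, dotted lines mark log2FC -1 and 1, and Fgf4 in MEFs has no point because no library had a read.

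Fgf4 was higher in KO cells as soon as it could be measured well. At D5 the KO libraries had 182, 364 and 321 normalised read counts against 29.1, 59.9 and 44.8 in WT, a log2FC of 2.70 (SE 0.23, FDR 1.6e-28). At D7 they had 1886, 2160 and 1698 against 521, 775 and 648, a log2FC of 1.56 (SE 0.19, FDR 1.5e-14). The groups did not overlap at either stage, as for 29.0% and 47.0% of all genes with reads. Both calls held in each of 12 alternative fits. In established lines the groups still did not overlap, as for 20.0% of all genes with reads in iPS cells and 30.2% in ESCs. KO iPS cells had 8337, 6691 and 6846 against 6059, 6037 and 6358 in WT. KO ESCs had 6783, 7104 and 6909 against 5790, 5664 and 5942. The log2FC of 0.25 (SE 0.19) in iPS cells and 0.26 (SE 0.19) in ESCs had FDR 0.42 and 0.43. The share of Fgf4 in the ligand level per kilobase was 61.1% in KO and 11.6% in WT cells at D5, and 93.9% and 68.8% at D7.

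Beside these values, markers of the 2 cell states moved with genotype in the same libraries. The sum of 10 pluripotency markers was 34930 to 43913 in KO and 12484 to 16413 in WT cells at D7, and 10566 to 12331 against 7526 to 8248 at D5, and none of the 10 was at 0 at either stage. The sum of 10 fibroblast markers was 12412 to 25994 in KO and 37934 to 46895 in WT cells at D7, and 28852 to 33328 against 35802 to 46760 at D5, with none at 0. At D7 8 of the 10 pluripotency markers were called up (3.95% of all genes) and 3 of the 10 fibroblast markers down (4.42%). Other marker sums also differed at D7. That of primed epiblast was 2506 to 3309 in KO against 1177 to 1281 in WT cells, and that of trophoblast 1437 to 1929 against 692 to 954. The endothelial and blood sum was 583 to 608 against 635 to 896. The epithelial and extraembryonic endoderm sums overlapped. These are bulk libraries, so more cells expressing a gene and more RNA per cell cannot be told apart, and the part that cell state played in the FGF differences was not tested.

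Fgf15 went the other way, together with its neighbour Fgf3. At D7 Fgf15 was at 45.2, 49.9 and 117 normalised read counts in KO against 186, 211 and 282 in WT cells (log2FC -1.68, SE 0.33, FDR 7.1e-06), which held in each of 12 alternative fits. At D5 it was at 144, 87.1 and 196 against 289, 250 and 338 (log2FC -1.03, SE 0.33, FDR 0.026). That call was lost by edgeR's quasi-likelihood test (FDR 0.063) and without WT replicate 1 (FDR 0.070), WT replicate 3 (0.159), KO replicate 1 (0.076) or KO replicate 2 (0.232). At D3 the libraries did not overlap either, as for 14.6% of all genes with reads. They were at 179, 235 and 265 in KO and 318, 333 and 398 in WT cells, but the log2FC of -0.63 (SE 0.32) had FDR 0.78. In iPS cells and ESCs the log2FC was -0.34 (SE 0.32) and -0.44 (SE 0.33), without a call. The ESC libraries did not overlap, at 142 to 196 in KO and 202 to 249 in WT cells.

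Fgf3 is a ligand outside the 10 members whose gene ends 2930 bases before the start of the Fgf4 gene model, which in turn ends 31287 bases before Fgf15. The RefSeq start of Fgf4 used above lies further from Fgf3, inside that gene model, after base 144861385. Fgf3 rose from at most 4.07 in MEFs to 952, 905 and 1240 normalised read counts in WT cells at D3, above the Fgf15 counts there. KO cells had 496, 508 and 714 at D3 (log2FC -0.85, SE 0.27, FDR 0.18), 307, 214 and 262 against 768, 693 and 752 at D5 (log2FC -1.50, SE 0.28, FDR 6.8e-06), and 53.2, 51.6 and 94.4 against 184, 325 and 375 at D7 (log2FC -2.15, SE 0.29, FDR 1.1e-11). Of 3 adjacent FGF genes, the middle gene was therefore higher and both outer genes were lower in KO cells at D5 and D7. Next to Fgf15 lie LTO1 and Ccnd1, named here after their values were seen. LTO1 was between 405 and 685 at D5 and D7 in both genotypes, and Ccnd1 was between 9006 and 14868. These ranges pool the genotypes and do not show whether KO and WT cells differed.

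**Figure D5:**
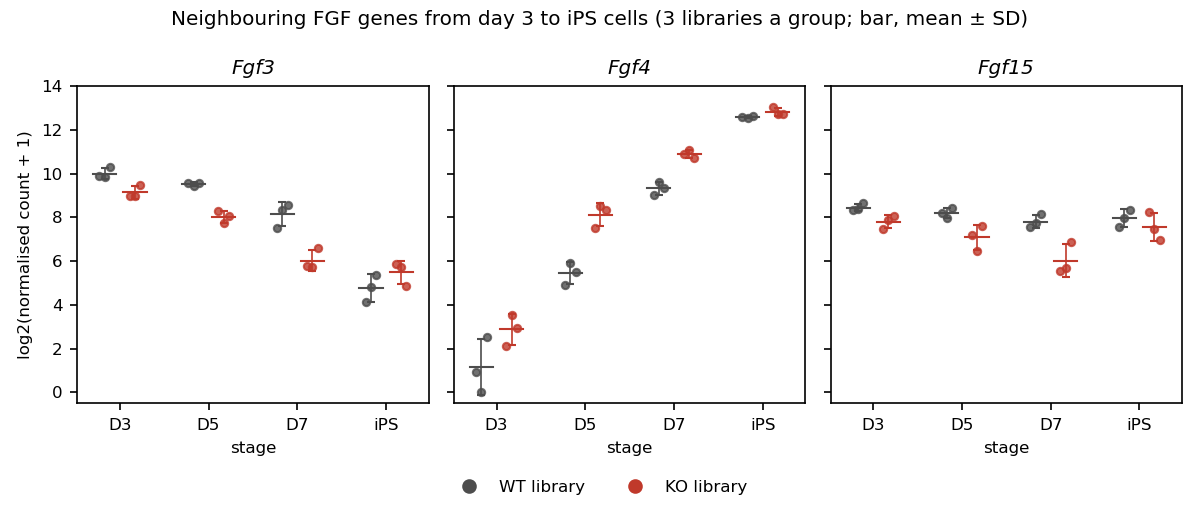
Level of the 3 neighbouring ligand genes Fgf3, Fgf4 and Fgf15 from D3 to iPS cells, as log2(normalised read count + 1), with a point for each library (grey WT, red KO) and a bar for the mean with its SD (n = 3). At D5 and D7 all KO libraries lie above all WT libraries for Fgf4 and below them for Fgf3 and Fgf15.

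Some exons of the members are shared with another gene on the opposite strand, and although the library kit was stranded, use of strand in counting is not given in the sources used here. Fgf15 shares 761 bases with the antisense gene Gm26793, which was at 22.6 normalised read counts or less in all 36 libraries. Fgf2 shares 640 bases with Nudt6 (30.4 to 127 over all libraries), Fgf10 shares 123 bases with Gm16263, Fgfr1 shares 164 with Gm16159, and Fgfr3 shares 998 with G630022F23Rik, which was highest at D3 as Fgfr3 was (17.4 at most). The long Fgfr2 model shares 314 bases with Ctbp2 on the same strand, and Ctbp2 was at 1757 or more in every library, so Fgfr2 values hold this uncertainty. Fgf4, Fgf7, Fgf17 and Fgfr4 share no exon base with another gene.

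Among the receptors Fgfr4 was the member called. At D7 KO libraries had 10.0, 25.4 and 35.4 Fgfr4 normalised read counts and WT libraries 9.13, 9.06 and 6.17 (log2FC 1.55, SE 0.42, FDR 0.0016), a call that held in each of 12 alternative fits at levels of few reads. In iPS cells KO clones had 182, 149 and 134 against 76.9, 80.9 and 69.6 (log2FC 1.03, SE 0.28, FDR 0.0031). This call rests close to the size limit and was lost without WT replicate 3 (log2FC 0.98) or KO replicate 1 (log2FC 0.90). KO replicate 1 also stood apart in markers of extraembryonic endoderm, with Gata6 at 204 against 12.2 and 16.2 in the other KO clones and 7.42 to 42.2 in WT clones. The summed level of the 6 such markers ranged from 104 to 1023 over KO and from 90.0 to 162 over WT clones, and their part in the Fgfr4 and Fgf17 differences of iPS cells was not tested. In ESCs the libraries were at 139, 109 and 104 against 76.3, 74.9 and 74.7, without overlap, with log2FC 0.64 (SE 0.28, FDR 0.14). Fgfr4 was thus above WT in every KO library of D7, iPS cells and ESCs, and passed the test at the first 2. Of all genes with reads, 20.7%, 11.4% and 16.4% had every KO library above every WT library at these stages.

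The other receptors gave no call between KO and WT cells at any stage. Fgfr1 at D7 was at 3471, 3584 and 3693 normalised read counts in KO and 3006, 2696 and 3010 in WT cells, without overlap, with log2FC 0.30 (SE 0.14, FDR 0.097). Fgfr3 at D5 was at 45.8, 43.0 and 71.7 in KO and 81.5, 91.9 and 137 in WT cells (log2FC -0.94, SE 0.33, FDR 0.057), and was called in fits without WT replicate 1 (FDR 0.049) or KO replicate 3 (FDR 0.024). Fgfr2 in iPS cells was at 287, 270 and 458 in KO and 393, 386 and 763 in WT clones (log2FC -0.60, SE 0.33, FDR 0.21). Its log2FC in MEFs, 0.49 (SE 0.33), rests on the third KO library. Counting libraries alone, KO and WT did not overlap for 5 of the 10 members at D5 and 5 at D7, against 29.0% and 47.0% of all genes with reads.

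Fgf17 was called between iPS clones and Fgf2 between ESC lines. Fgf17 in iPS cells was at 57.9, 121 and 207 normalised read counts in KO and 266, 443 and 268 in WT clones (log2FC -1.34, SE 0.41, FDR 0.011). The call was lost without WT replicate 2 (FDR 0.113) or KO replicate 1 (log2FC -0.99). In ESCs the Fgf17 groups overlapped, at 316, 404 and 479 in KO and 502, 524 and 469 in WT cells (log2FC -0.32, SE 0.41, FDR 0.70). Fgf2 in ESCs was at 20.6, 15.6 and 17.9 in KO and 6.02, 5.06 and 10.4 in WT cells (log2FC 1.31, SE 0.39, FDR 0.014), all far below the MEF level and the WT values little above that of 3 reads. This call was lost by edgeR (FDR 0.0504) and without WT replicate 1 (FDR 0.092), WT replicate 2 (0.099) or KO replicate 1 (0.055). In MEFs, where Fgf2 and Fgf7 are abundant, their log2FC between KO and WT was -0.11 (SE 0.17) and 0.26 (SE 0.41).

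Whether the KO effect itself differed between neighbouring stages was tested as the difference of the KO to WT log2FC. From D5 to D7 the Fgf4 effect became smaller by 1.14 on the log2 scale (log2FC difference -1.14, SE 0.30, FDR 0.0058), the only member called of the 10 (1.64% of all genes called). From D7 to iPS cells it fell by a further 1.32 (log2FC difference -1.32, SE 0.27, FDR 1.8e-05). The lower Fgf15 level of KO cells became less marked (log2FC difference 1.33, SE 0.46, FDR 0.023), a call made in 12 of 18 alternative fits. For Fgf3 the same difference was 2.87 (SE 0.44, FDR 7.2e-09). All genes called there were 9.16%. No member was called from MEF to D3 (0.0420% of all genes), from D3 to D5 (0.0448%) or from iPS cells to ESCs (0.590%). Of these 30 differences, 2 had an unadjusted p below 0.05 from MEF to D3 (Fgfr3 and Fgfr4) and 1 from D3 to D5 (Fgf10).

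The other genes of the pathway are given by list. The 12 genes of the ERK feedback list, which ERK activity induces, included 2 called up at D5 (0.808% of all genes) and 6 called up at D7 (3.95%), with none down. Their median log2FC at D7 was 1.16, against -0.04 over all genes tested. Etv5 was at 6822, 7856 and 6072 normalised read counts in KO against 2053, 2362 and 2151 in WT cells at D7 (log2FC 1.66, SE 0.22, FDR 4.0e-12), and had already risen at D5 (log2FC 1.99, FDR 3.2e-15). Etv1 was called at both stages (log2FC 1.79 at D7, and 1.27 at D5 with FDR 0.046, which was lost in 6 of 12 alternative fits). The ERK phosphatase gene Dusp6 was at 1355, 1501 and 1305 against 306, 530 and 380 at D7 (log2FC 1.78, SE 0.41, FDR 0.00013). Spry2 (log2FC 1.44), Spry4 (1.40) and Spred1 (1.14), which dampen signalling upstream of ERK, were also called up at D7. Spry1, Spred2, Dusp4, Dusp5, Etv4 and Il17rd were not called, and Etv4 was at 791, 1134 and 1138 against 406, 489 and 462 (log2FC 1.18, FDR 0.060). The pluripotency marker sum moved with them as given above, and its part was not tested.

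The 12 adaptor genes (FRS2, GRB2, SHP2 and partners) gave 0 calls at D5 and 0 at D7 (median log2FC at D7 0.18), and so did the 10 genes of the ERK cascade (median 0.07), where 1.19% of all genes were called at D5 and 8.37% at D7. Of 19 heparan sulfate genes, 3 were called down at D7 (4.42% of all genes) and none up (3.95%): the proteoglycan cores Sdc3 (log2FC -1.35) and Gpc1 (-1.04) and the sulfotransferase Hs6st2 (-1.10). Sdc3 was at 1096, 1158 and 1633 in KO against 2691, 3087 and 4143 in WT cells.

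Other FGF genes of the family were called down or not called at D7, where 4.42% of all genes were called down and 3.95% up. Of 8 tested secreted ligands outside the 10 members, 4 were called down and none up. These were Fgf3, Fgf18 (log2FC -1.09, at 141, 128 and 189 in KO against 320, 293 and 364), Fgf16 (-1.23) and Fgf23 (-3.49). Fgf23 was at 0.908 or less in KO and 8.06 or less in WT. Its call was kept in 6 of the 11 alternative fits that gave it an FDR, and lost under the replicate block (FDR 0.12). Fgf13, an intracellular FGF that does not act on FGF receptors, was called down (-1.05), as was the carrier gene Fgfbp3 (-1.04), which in MEFs was called up (log2FC 1.34, SE 0.22, FDR 1.1e-05, lost with only the groups compared, FDR 0.105). Klb, the coreceptor through which FGF15 acts on FGFR4, was called up from no read in WT cells to 4.02, 10.5 and 1.82 in KO cells, a call at the level of few reads that was lost by edgeR (FDR 0.0507) and without KO replicate 2 (FDR 0.088). Fgf4 was thus the FGF ligand gene called up at D7, beside 5 secreted ligand genes called down, with Fgf15 counted.

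The genes most like each member over the 12 group means of log2(normalised read count + 1), among 14636 genes (14637 for Fgfr4) with a mean of at least 50, are a description of shared courses and carry no test. For Fgf4 they were Tcl1 (Pearson r 0.995) and Tdgf1 (0.995), both genes of pluripotent cells. For Fgf2 they were the paralogs Rtl8a (0.995) and Rtl8b (0.994), for Fgf7 Ltbp3 (0.994) and Snap47 (0.991), and for Fgf10 Sfxn5 (0.988) and Mpp2 (0.988). For Fgf15 they were Wdr74 (0.990) and Serac1 (0.990), and for Fgf17 Cnot8 (0.992) and Tkt (0.990). For the receptors they were Prkd2 (0.988) and Tmem241 (0.985) for Fgfr1, Ddx4 (0.992) and Vegfb (0.992) for Fgfr2, Emc2 (0.972) and Fyttd1 (0.964) for Fgfr3, and Dennd6a (0.991) and Lsm14a (0.990) for Fgfr4. The 12 points share their libraries in pairs of genotypes at 6 stages, so the step from MEF to reprogramming cells and that to pluripotent cells weigh heavily in each r.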

How the data were processed

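RNA was sequenced from 36 mouse libraries (12 groups of 3). The authors removed adapters with Cutadapt, aligned the reads to GRCm38 (GRCm38.p6) using STAR, and counted them per gene with Rsubread. Versions, the rule that kept 21442 genes and the use of strand are not given in the sources used here. The deposited counts are raw reads per gene. The deposited normalised counts, a signal scaled by the authors, are those counts divided by 1 DESeq2 size factor per library. The authors' comparison tables hold fold changes, p-values and FDR and were used for gene names only. Batch-corrected log values were not used, because the labels do not give the library preparation batches. Without the batches no fit with batch as a term could be had, so batch and group cannot be told apart.

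Groups were taken from the labels. Counts were tested with DESeq2 1.42.0 (R 4.3.3, two-sided Wald test, Benjamini-Hochberg FDR over all genes tested) with a single factor of 12 levels over all 36 libraries, as the study's methods describe. A call required FDR below 0.05 and an absolute log2FC above 1. The code was tested on simulated data. Alternatives were edgeR 4.0.16 (quasi-likelihood), TMM size factors, a low-count filter, no independent filtering, only the groups compared, leaving out each library, and the replicate number as a block. Same-numbered KO and WT libraries deviated together at D3 (correlations 0.456, 0.101 and 0.272) and D7 (0.339, 0.172 and 0.392), each above 0.1. This is a hint of pairs from the data, and replicate 2 at D3 correlated more with another number (0.126). At D5 they were 0.268, 0.0897 and 0.221, and at most 0.0160 with another number. In MEFs, iPS cells and ESCs some were negative. The fit of the report had no pair term, so its p-values do not use pairs. Pairs entered only as the replicate block.

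All 10 members were named. Genes of the wider FGF lists were named where called between KO and WT cells at D5 or D7, with Fgf3, LTO1, Ccnd1, the exon partners and the genes of established lines added, and the 2 genes most alike were named for each member. The members and lists were chosen with earlier results of these data known. Total counts of 19224103 to 39610939 per library set the precision, and a count of 3 was used as the floor.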

Additional observations from a re-analysis of the deposited data

Results flagged for a closer look

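The KO effect on Fgf4 differed between stages by a test of the difference itself. From D5 to D7 the log2FC between KO and WT cells went from 2.70 to 1.56 (difference -1.14, SE 0.30, FDR 0.0058, DESeq2 Wald test), while the libraries of both stages did not overlap between genotypes. This difference was lost by edgeR (FDR 0.0647), with only the groups compared (FDR 0.0688), and without D5 WT replicate 1 (log2FC difference -0.90), D5 KO replicate 2 (-0.95) or D7 WT replicate 2 (-0.99).

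From D7 to iPS cells the log2FC of Fgf4 went from 1.56 to 0.25 (difference -1.32, SE 0.27, FDR 1.8e-05), and this call was kept in every alternative fit.

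From D7 to iPS cells the log2FC of Fgf15 went from -1.68 to -0.34 (difference 1.33, SE 0.46, FDR 0.023). This call was lost with only the groups compared (FDR 0.0905) and without D7 WT replicate 3, D7 KO replicate 1, D7 KO replicate 2, iPS WT replicate 1 or iPS KO replicate 1 (highest FDR 0.15).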

How the results depend on the processing

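Counts of members called are given here against those of the fit in the report. By edgeR's quasi-likelihood test 1 member was called between KO and WT cells at D5 (2 in the report), 0 in ESCs (1), and 0 for the difference of KO effects from D5 to D7 (1). With only the groups compared, 0 were called in ESCs (1), 0 for the difference of KO effects from D5 to D7 (1), and 1 for that from D7 to iPS cells (2). Leaving out 1 library at a time gave 1 to 3 members between KO and WT at D5 (2), 0 to 2 in iPS cells (2) and 0 to 1 in ESCs (1). The same gave 0 to 2 for the difference of KO effects from D5 to D7 (1) and 1 to 5 for that from D7 to iPS cells (2). For WT stage steps it gave 1 to 2 from D3 to D5 (1) and 1 to 2 from D5 to D7 (1), and for KO steps 2 to 5 from D3 to D5 (4) and 3 to 5 from D5 to D7 (5). TMM size factors, the low-count filter and no independent filtering left all 22 counts of members as they were, and the replicate block all but 1, the difference of KO effects from D7 to iPS cells, with 3 members called (2).

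With the replicate block, which pairs same-numbered libraries at every stage, Fgfr2 was the member added there. Its difference passed the test (log2FC difference -1.03, FDR 0.037, against 0.125 without it). This fit also paired iPS libraries, whose same-numbered correlations were -0.142, 0.0331 and 0.259. Fgf23 at D7 missed the test under the block (FDR 0.12). The block changed no other call among the members and the named genes of the wider lists. No direction was reversed among called values. Genes near 3 reads per library, such as Fgf4 at D3 and Fgfr4 before D7, are limited by depth.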

Other observations

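In established lines, some FGF pathway genes outside the 10 members were lower and others higher in KO cells, and they are named after their values were seen. Fgfbp1, which encodes a secreted carrier that releases FGFs from heparan sulfate, was at 44.9, 60.8 and 63.6 normalised read counts in KO and 71.7, 195 and 219 in WT iPS clones (log2FC -1.52, SE 0.34, FDR 0.00027, DESeq2 Wald test). In ESCs it was at 44.0, 55.5 and 79.0 against 207, 204 and 187 (log2FC -1.74, SE 0.34, FDR 3.1e-05). The groups did not overlap in either line, as for 20.0% of all genes with reads in iPS cells and 30.2% in ESCs. Both calls were kept in 12 of 12 alternative fits. Fgf18 in iPS cells was at 8.98, 6.94 and 9.09 in KO and 33.7, 31.0 and 96.5 in WT clones (log2FC -2.69, SE 0.38, FDR 7.6e-10), also kept in 12 of 12.

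Fgf1, a ligand that binds all FGF receptors, was at 89.8, 299 and 74.8 in KO and 374, 544 and 271 in WT iPS clones (log2FC -1.36, SE 0.51, FDR 0.049), a call lost in 6 of 12 alternative fits. In ESCs it was at 181, 79.8 and 72.7 against 265, 262 and 240, and the log2FC of -1.20 had FDR 0.12. The heparan sulfate proteoglycan gene Sdc4 was higher in KO iPS cells (log2FC 1.03, SE 0.20, FDR 1.5e-05), at 2649.5, 2115 and 2139 against 898, 724 and 1762. That call was lost without WT replicate 1, WT replicate 2 or KO replicate 1, where the log2FC was between 0.79 and 0.92. Klb was called up in KO iPS cells (log2FC 3.95, SE 1.12, FDR 0.0055), at 156, 12.2 and 11.1 against 4.32, 1.72 and 5.57, and was called in each of the 10 alternative fits that gave it an FDR. The highest of these is KO replicate 1, the clone with the most Gata6.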
